A study of Mus musculus with 11 samples.

Results

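A set of 10 genes of de novo fatty acid synthesis were examined in lacrimal glands of male NOD mice, a strain whose males develop spontaneous lymphocytic inflammation of this gland. They are *Thrsp*, *Fasn*, *Acaca*, *Acly*, *Scd1*, *Scd2*, *Elovl6*, *Me1*, *Srebf1* and *Mlxipl*, which make up 10 of the 19058 genes in the count table and 10 of the 13937 genes tested. The 10 genes were chosen by their place in this pathway, with results of these glands known, and *Thrsp* was selected on its increase in *Tlr7* KO compared to WT mice. Their values in that comparison are therefore a description without a test. RNA of 1 whole gland per mouse was sequenced from 3 wild-type (WT) NOD mice, 5 *Tlr7* KO mice and 3 *Ifnar1* KO mice, each knockout on the NOD strain.

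TLR7 is an endosomal receptor for single-stranded RNA and *Ifnar1* encodes a chain of the type I interferon (IFN) receptor. The study compared the glands to find genes that depend on either receptor. WT and *Tlr7* KO mice were 20 to 22 weeks old, whereas for the *Ifnar1* KO mice the sources used here give no age beyond a wide range for all mice of the study. The *Tlr7* KO mice descend from 1 Cas9-edited allele with a deletion of 2 base pairs, found among the progeny of edited mice, and its carrier was crossed to NOD once more. *Tlr7* is X-linked. The *Ifnar1* KO mice carry the edited allele em16 in homozygous form. Per the study's methods, another *Ifnar1* KO mouse was left out after sequencing because its expression profile lay with the WT mice and its gland was as inflamed as theirs. The *Ifnar1* KO group was thus trimmed on expression itself, which the fold changes, the separation from WT and the p-values given here do not account for, and that mouse is not analysed here. All 11 mice were male, and the same 3 WT mice served both comparisons with WT. NOD mice also develop autoimmune diabetes, and the sources used here do not give the diabetic status of these 11 mice. Age, diabetes, housing and time of collection cannot be told apart from genotype where they differed between the strains. *Tlr7* transcript was at 1.52 to 2.94 counts scaled to a common library size (CPM) in WT, 0.494 to 0.950 CPM in *Tlr7* KO and 0.251 to 0.822 CPM in *Ifnar1* KO glands, so its level separates WT from both knockouts and does not separate the knockouts. *Ifnar1* was at 10.5 to 15.1, 8.34 to 11.2 and 8.34 to 9.63 CPM in the same order.

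New fatty acids are built in the cytosol from citrate that leaves the mitochondrion. ATP citrate lyase (*Acly*) cleaves it to acetyl-CoA, acetyl-CoA carboxylase 1 (*Acaca*) makes malonyl-CoA, and fatty acid synthase (*Fasn*) joins these units to palmitate with NADPH that malic enzyme 1 (*Me1*) helps to supply. The elongase *Elovl6* lengthens palmitate, and the stearoyl-CoA desaturases *Scd1* and *Scd2* place a double bond in the product. The transcription factors SREBP-1 (*Srebf1*) and ChREBP (*Mlxipl*) switch on these genes in liver and fat after feeding. *Thrsp* encodes Spot 14, a small acidic protein that is induced by thyroid hormone and carbohydrate in lipogenic tissues and acts together with the synthesis enzymes. The lacrimal gland secretes mainly water and protein, whereas the neighbouring Harderian gland of rodents and the sebaceous glands of the lids secrete lipid.

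Between 20512315 and 28814250 counts per mouse were assigned to genes, and a floor of 3 counts lay at 0.082 to 0.158 CPM, a limit that covers counting error alone. Since 54.0 to 65.9% of each library came from its 10 most abundant genes, CPM were computed with edgeR's TMM factors, which ranged from 0.687 to 1.48. With library size alone as the scaling, all genes had a median of -0.54 in *Tlr7* KO and -0.31 in *Ifnar1* KO compared to WT on the log2 scale. The 12 epithelial markers summed to 2377 to 3437 CPM in WT, 5799 to 6273 CPM in *Tlr7* KO and 5964 to 6752 CPM in *Ifnar1* KO glands. Most of that sum was the lacrimal peroxidase *Lpo*, at a mean of 1595, 4530 and 4756 CPM. Of the 12, 5 rose and 2 fell in *Tlr7* KO (15.3% and 17.1% of all genes), 3 rose and 3 fell in *Ifnar1* KO (6.92% and 12.1% of all genes), and *Epcam* had log2 fold changes of -0.037 and -0.071. Lymphocyte markers summed to 94.3 to 326.7, 13.5 to 75.0 and 4.44 to 33.7 CPM. In WT 1, WT 2 and *Tlr7* KO 4, skeletal muscle markers stood at 368, 276 and 259.6 CPM, against 0.152 to 9.98 CPM in the other 8 mice. In whole glands, fewer cells of a type and less RNA per cell cannot be told apart.

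*Thrsp* (ENSMUSG00000035686, GRCm38 chr7:97412938-97417730, minus strand) was low in WT glands and higher in each mouse of both knockouts. Its counts were 146, 11 and 118 in WT 1 to WT 3, which are 4.99, 0.464 and 3.23 CPM. The 5 *Tlr7* KO mice had 37.6, 38.1, 44.3, 51.9 and 32.3 CPM. The 3 *Ifnar1* KO mice had 24.6, 28.2 and 29.1 CPM. No knockout mouse came near the highest WT mouse, and the lowest *Tlr7* KO mouse was above the highest *Ifnar1* KO mouse. The mean was 2.89 ± 2.28 CPM (SD, n = 3) in WT, 40.8 ± 7.50 CPM (n = 5) in *Tlr7* KO and 27.3 ± 2.40 CPM (n = 3) in *Ifnar1* KO glands.

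**Figure D1:**
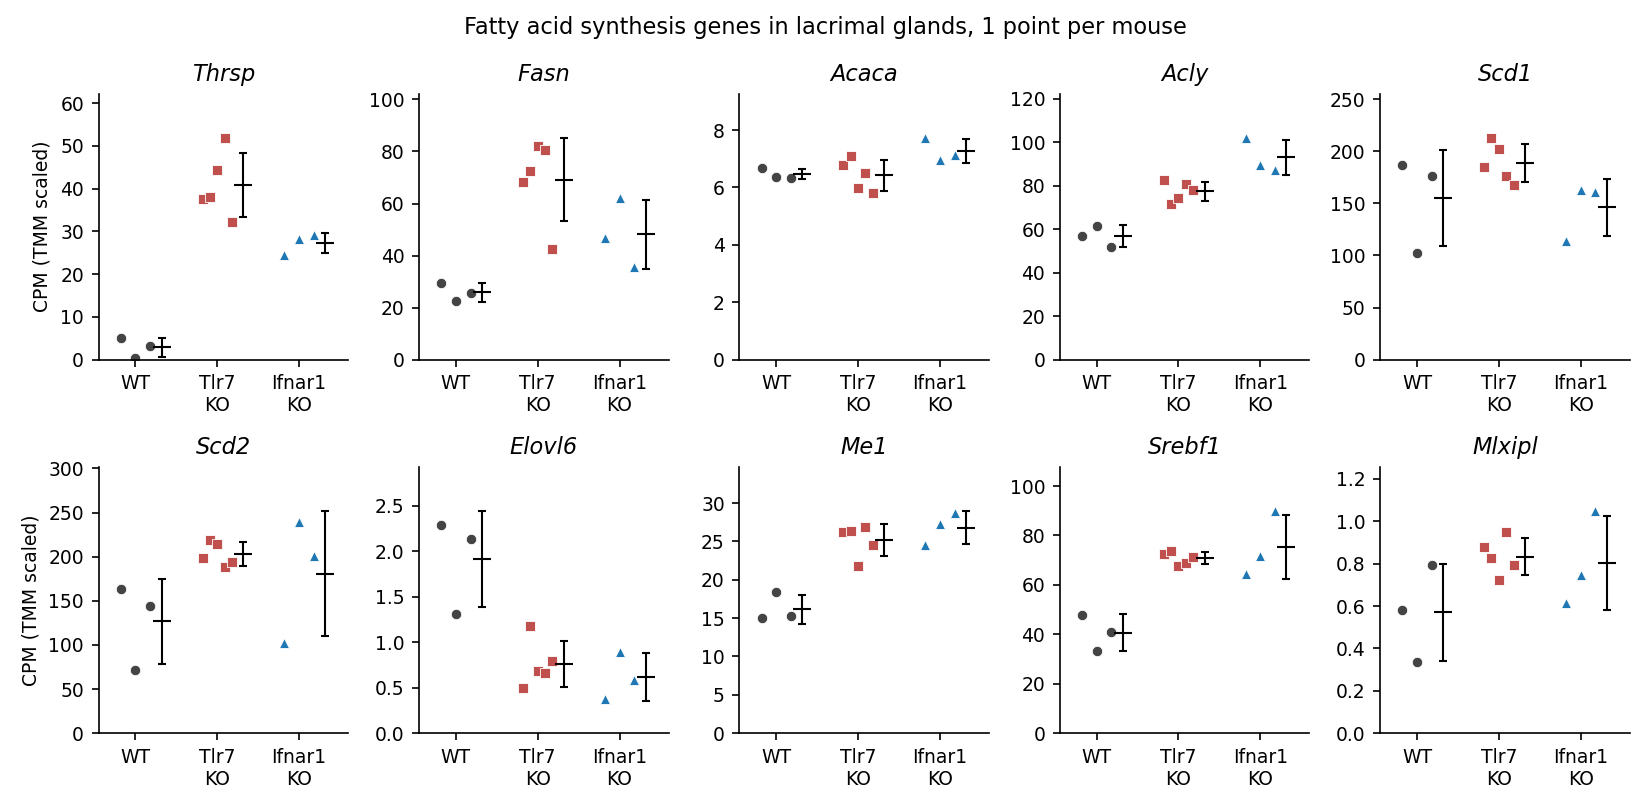
Level of each of the 10 genes in CPM (vertical axes, linear and starting at 0) in every mouse of the 3 groups on the horizontal axis; black bars give the mean and SD. *Thrsp* lies at or below 4.99 CPM in WT and at or above 24.6 CPM in both knockouts, *Acaca* stays between 5.81 and 7.73 CPM in all 11 mice, and *Elovl6* is the gene that is lower in both knockouts.

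The log2 fold change of *Thrsp* was 3.78 (SE 0.55), or 13.7-fold, in *Tlr7* KO compared to WT. This was the value on which it was selected. It ranked 5 of 13937 genes tested by increase. Among the 4990 genes whose mean reached 10 CPM in *Tlr7* KO glands it ranked 4, just below *Gm14135* at 4.06 and just above *Scgb2b19* at 3.70. With a mean of 2.89 CPM in WT, *Thrsp* passed that filter through the *Tlr7* KO level it was selected on. Without WT 2, the mouse with the lowest level, the log2 fold change was 3.32, and without WT 1 it was 4.36. In *Ifnar1* KO mice *Thrsp* was 9.10-fold higher than in WT (log2 fold change 3.19, SE 0.62) and ranked 6 of 13937. This too is a description, since *Thrsp* was selected against the same 3 WT mice. Without WT 2 that log2 fold change was 2.71, and without WT 1 it was 3.79.

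Promoter sequences of *Thrsp* and *Fasn* are shown because these were the genes with the largest increases among the 10, and their upstream stretches share CCAAT boxes, the letters bound by the factor NF-Y. In the stretches below, from RefSeq windows on GRCm38.p6 and read 5′ to 3′ along the gene, capitals mark CCAAT or its reverse complement ATTGG. The *Thrsp* stretches lie at chr7:97417613-97417640 and chr7:97417585-97417612 on the minus strand, 90 to 63 and 62 to 35 bases before the RefSeq start site. In GENCODE M21 a longer *Thrsp* transcript starts upstream, so that both fall in its first exon and 5′ UTR (chr7:97417504-97417730). The *Fasn* stretch lies at chr11:120824578-120824657 on the minus strand, 110 to 31 bases before its start site.
Thrsp distal box: caaacgctgggATTGGctcaaaacaggg
Thrsp proximal box: ctgtgttgctCCAATggttgggctttgg
Fasn boxes: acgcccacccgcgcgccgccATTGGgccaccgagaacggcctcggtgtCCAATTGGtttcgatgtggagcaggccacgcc
The search covered both strands of windows from 250 bases before to 50 bases after the start site. Beside CCAAT, the E-box was searched for by the letters CACGTG and the GC box by GGGCGG. The TATA box was given by TATAAA, and the sterol regulatory element by TCACNCCAC with any base at N. CCAAT was found in 37.4% of 32851 mouse windows, and 2 or more boxes in 11.7%. *Thrsp* had 2, at positions -79 and -52, and *Fasn* had 3, at -90, -62 and -59, of which the last pair overlap. Neither window held any of the other 4 motifs. A window was found for 8 of the 10 genes, with 12 windows in all. CCAAT was present in 7 of the 12 windows, which belong to 6 genes. The E-box (7.15% of all windows) was found for *Mlxipl* alone, at -98, and the sterol regulatory element (1.24%) also for *Mlxipl* alone, in a window at another start site. GC boxes (35.7%) were found for *Acly*, *Me1*, *Srebf1* and *Mlxipl*, and TATAAA (13.6%) for none. *Elovl6* and *Acaca* windows held none of the 5 motifs, and the *Acaca* window is at a start site inside its gene model. These are matches of letters in these windows and not measurements of binding.

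Across the 10 genes, 6 had an adjusted p under 0.05 in *Tlr7* KO compared to WT, of which 5 were higher and 1 was lower in the KO. Among all genes tested the share was 32.5%, with 15.3% higher and 17.1% lower. The groups did not overlap for 7 of the 10 genes, beside 30.8% of all genes. The 10 had a median of 0.58 on the log2 scale, and all genes had one of -0.037. With library size alone as the scaling, 1 of the 10 was called higher and 1 lower, beside 0.839% and 30.8% of all genes (31.6% in either direction), and DESeq2 called 7, beside 33.0% of all genes. On the scale of library size alone, 9 of the 10 genes still lay above the median of all genes, and the median of the 10 was 0.56 above it. Since the genes were chosen with this comparison known, nothing is read from these counts.

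In *Ifnar1* KO compared to WT mice, 6 of the 10 genes were DE, with 5 higher and 1 lower, beside 19.0% of all genes (6.92% higher and 12.1% lower). *Fasn*, *Acly*, *Me1* and *Srebf1* rose and *Elovl6* fell, each at an adjusted p between 0.0236 and 0.0335 (edgeR's quasi-likelihood test). *Thrsp* is the other gene in the count, and its call is no independent evidence, since the WT mice it was selected against are the baseline here. The rest of the 10 were also chosen with results of these glands known, so their p values are no independent test either. The *Ifnar1* KO group is the one without its WT-like mouse. Groups did not overlap for 7 of the 10, beside 41.8% of all genes. Their median was 0.59 on the log2 scale, against -0.017 for all genes. With library size alone as the scaling, none of the 10 was called higher and 1 was called lower, beside 0.352% and 6.81% of all genes (7.16% in either direction), while 8 of 10 lay above the median of all genes and the median of the 10 was 0.56 above it. These calls rest on few mice: edgeR called 0 of the 10 when WT 1, WT 3, the first or the third *Ifnar1* KO mouse was left out, where over all genes it called 27, 103, 0 and 0 (3795, 3776, 4387 and 3801 at an unadjusted p under 0.05). The 10 genes kept adjusted p values of 0.0666 or more in those fits, their directions held except for *Scd1*, and DESeq2 on all mice called 6, beside 24.1% of all genes.

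**Figure D2:**
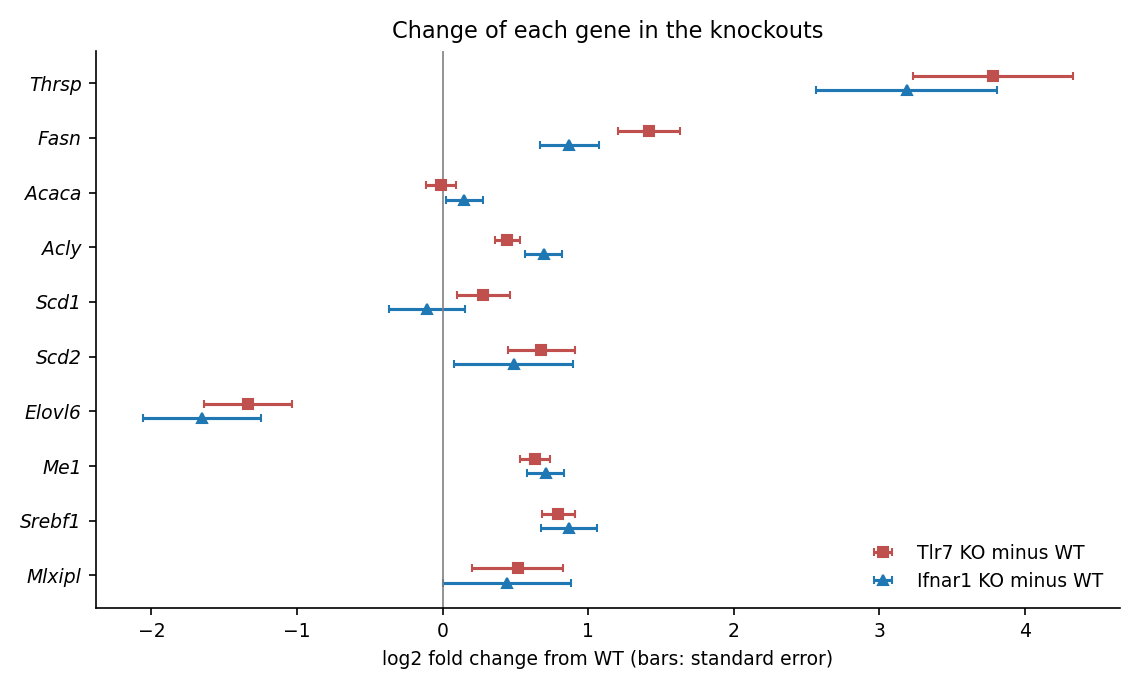
Log2 fold change from WT (horizontal axis) of each of the 10 genes (vertical axis) in *Tlr7* KO and *Ifnar1* KO glands; bars are standard errors and the same 3 WT mice enter both series. *Thrsp* is at 3.78 and 3.19, *Elovl6* at -1.34 and -1.65, *Acaca* at -0.01 and 0.15, and the other 7 genes lie between -0.11 and 1.42.

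The enzymes of the core pathway did not move together. *Fasn* (ENSMUSG00000025153, chr11:120805846-120824547) had 29.6, 22.4 and 25.6 CPM in WT, 68.2, 72.4, 82.2, 80.7 and 42.5 CPM in *Tlr7* KO and 46.7, 62.0 and 35.7 CPM in *Ifnar1* KO mice. Each knockout mouse was above each WT mouse, and *Tlr7* KO 5 was well below the other 4 of its group. On the log2 scale the change was 1.42 (SE 0.21) in *Tlr7* KO and 0.87 (SE 0.20, adjusted p = 0.0309, edgeR) in *Ifnar1* KO mice. Without *Ifnar1* KO 2 the latter was 0.66 with an adjusted p of 0.0584. Scaled by library size alone, *Fasn* stood at 0.92 and 0.56, and neither was called.

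*Acaca* (ENSMUSG00000020532, chr11:84129672-84401651), whose product feeds fatty acid synthase and is the regulated step of the pathway, stayed in a narrow range. It was at 6.34 to 6.67 CPM in WT, 5.81 to 7.09 CPM in *Tlr7* KO and 6.95 to 7.73 CPM in *Ifnar1* KO mice. The *Tlr7* KO values surround those of WT, and the *Ifnar1* KO values begin just above them. Its log2 fold change was -0.01 (SE 0.10) in *Tlr7* KO and 0.15 (95% interval -0.15 to 0.44, adjusted p = 0.424, edgeR) in *Ifnar1* KO mice. Its paralog *Acacb*, which makes malonyl-CoA at the mitochondrial surface, was at 2.43 to 2.98 CPM in WT, and rose by 0.50 in *Tlr7* KO mice (SE 0.15, adjusted p = 0.0333). In *Ifnar1* KO mice *Acacb* had a log2 fold change of 0.53 (SE 0.21, adjusted p = 0.103).

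*Acly* (ENSMUSG00000020917, chr11:100476353-100528000) had 56.9, 61.6 and 51.6 CPM in WT, 71.4 to 82.4 CPM in *Tlr7* KO (median 77.8) and 102, 89.7 and 87.3 CPM in *Ifnar1* KO mice. The 3 groups did not overlap, with *Ifnar1* KO mice highest. Relative to WT, the log2 fold change was 0.45 (SE 0.085) in *Tlr7* KO and 0.69 (SE 0.12, adjusted p = 0.0236, edgeR) in *Ifnar1* KO mice. With library size alone as the scaling these were -0.037 and 0.42, and neither was called. *Me1* (ENSMUSG00000032418, chr9:86581371-86695953) had 15.0, 18.4 and 15.2 CPM in WT, 26.3, 26.4, 21.7, 26.9 and 24.6 CPM in *Tlr7* KO and 24.5, 27.2 and 28.6 CPM in *Ifnar1* KO mice. WT mice were below all knockout mice, and the knockouts overlapped. Its log2 fold change was 0.64 (SE 0.10) and 0.71 (SE 0.13, adjusted p = 0.0236), or 0.16 and 0.43 with library size alone, where neither was called. In GENCODE M21 *Me1* shares 30 exon bases with a gene on the other strand, *A330041J22Rik*.

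Because counts of a library share its depth and scaling, ratios of 2 genes within a library do not depend on either. *Fasn* per *Acaca* was 4.0 ± 0.46 (SD, n = 3) in WT, 10.8 ± 2.47 (n = 5) in *Tlr7* KO and 6.66 ± 2.03 (n = 3) in *Ifnar1* KO mice. *Thrsp* per *Fasn* was 0.105 ± 0.076, 0.603 ± 0.098 and 0.599 ± 0.191, so *Thrsp* was higher relative to *Fasn* in each knockout mouse than in any WT mouse. *Fasn* per *Elovl6* was 14.0 ± 2.73, 99.0 ± 38.4 and 84.9 ± 34.8. For each of these ratios, WT and *Ifnar1* KO mice did not overlap. *Elovl6* per *Elovl5*, another elongase, was 0.197 ± 0.031, 0.204 ± 0.031 and 0.175 ± 0.036, and its groups overlapped. The pairs were formed with the levels of the genes known, so the ratios are descriptions without a test.

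**Figure D3:**
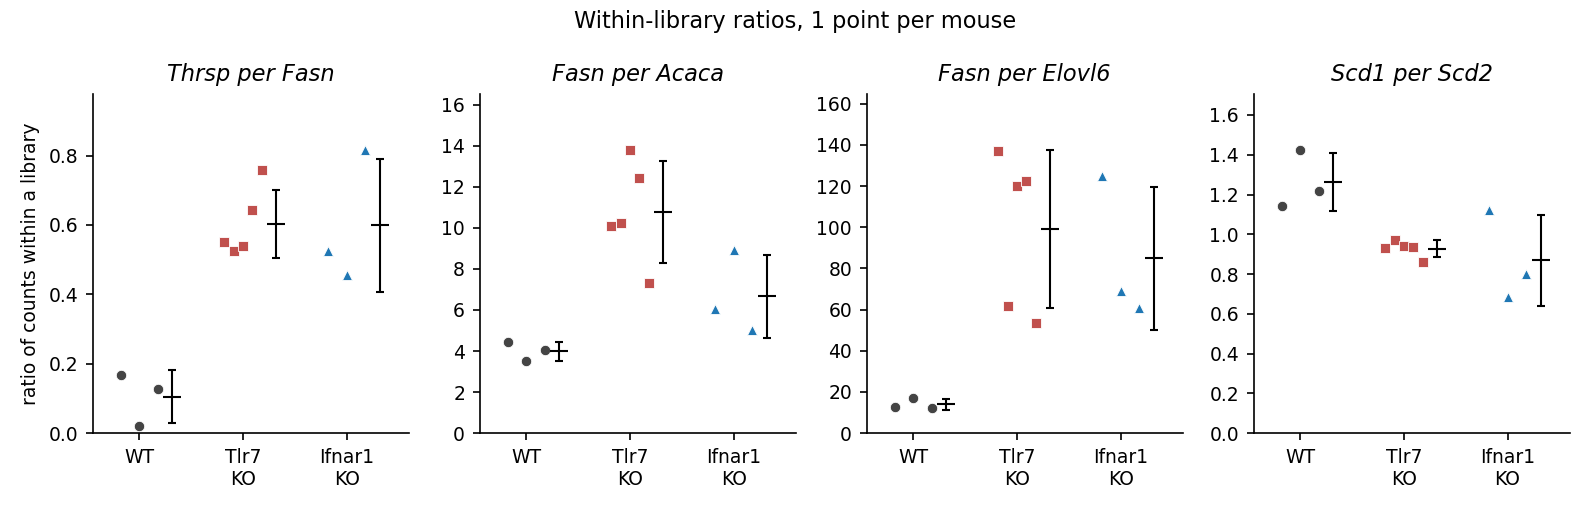
Ratio of the counts of 2 genes within a library (vertical axes, linear, starting at 0) for every mouse of the 3 groups, with mean and SD as black bars. *Thrsp* per *Fasn* lies at or below 0.169 in WT and at or above 0.455 in the knockouts, and *Scd1* per *Scd2* is at or above 1.14 in WT and between 0.682 and 1.12 in the knockouts.

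The desaturases were the most abundant of the 10 genes when levels were divided by the exon length of the gene model, at 31.7 ± 9.44 CPM per kb (SD, n = 3) for *Scd1* and 23.2 ± 8.88 CPM per kb for *Scd2* in WT. *Scd1* (ENSMUSG00000037071, chr19:44394455-44407879) had 187, 102 and 176 CPM in WT, 167 to 213 CPM in *Tlr7* KO (median 184) and 114, 163 and 161 CPM in *Ifnar1* KO mice. WT mice overlapped both knockouts, and each *Tlr7* KO mouse was above each *Ifnar1* KO mouse. The log2 fold change was 0.28 (SE 0.18) in *Tlr7* KO and -0.11 (95% interval -0.72 to 0.50, adjusted p = 0.796, edgeR) in *Ifnar1* KO mice, where its sign turned to 0.049 without WT 1 and 0.063 without *Ifnar1* KO 1.

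*Scd2* (ENSMUSG00000025203, chr19:44293674-44306864) had 164, 71.7 and 145 CPM in WT, 188 to 219 CPM in *Tlr7* KO (median 198) and 102, 239 and 201 CPM in *Ifnar1* KO mice. *Tlr7* KO mice were above all WT mice, whereas *Ifnar1* KO 1 fell among them. The log2 fold change was 0.68 (SE 0.23) in *Tlr7* KO, or 0.39 without WT 2, and 0.49 (95% interval -0.49 to 1.47, adjusted p = 0.421) in *Ifnar1* KO mice. *Scd1* and *Scd2* were low in the same mice, WT 2 and *Ifnar1* KO 1. The ratio of *Scd1* to *Scd2* was 1.26 ± 0.146 in WT, 0.928 ± 0.041 in *Tlr7* KO and 0.869 ± 0.228 in *Ifnar1* KO mice. WT mice lay at 1.14 to 1.42, above the 0.862 to 0.973 of *Tlr7* KO and the 0.682 to 1.12 of *Ifnar1* KO mice. Desaturases of this family are close in sequence, so that reads could be shared between them. *Scd3*, their relative of sebaceous gland and skin, was at 0.970 to 1.94 CPM over all mice (log2 fold change 0.29 with an adjusted p of 0.352 for *Tlr7* KO, and 0.57 with one of 0.154 for *Ifnar1* KO). *Scd4* reached at most 0.268 CPM and was below the count needed for testing.

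*Elovl6* (ENSMUSG00000041220, chr3:129532355-129638495) was the 1 gene of the 10 that was lower in both knockouts. It had 67, 31 and 78 counts in WT, which are 2.29, 1.31 and 2.13 CPM. The *Tlr7* KO mice had 0.498, 1.17, 0.684, 0.659 and 0.792 CPM, and the *Ifnar1* KO mice 0.375, 0.897 and 0.586 CPM, from 11 to 27 counts per library. Each knockout mouse was below each WT mouse, with *Tlr7* KO 2 close to WT 2. The log2 fold change was -1.34 (SE 0.30) in *Tlr7* KO, and in *Ifnar1* KO it fell by 1.65 (SE 0.41, adjusted p = 0.0335, edgeR).

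*Elovl6* and the lymphocyte markers shared their extreme mouse in part. WT 2 had the lowest value of the WT mice for both, at 1.31 CPM of *Elovl6* and 94.3 CPM of summed lymphocyte markers. *Tlr7* KO 2 was highest in its group at 1.17 and 75.0 CPM, and *Ifnar1* KO 2 in its group at 0.897 and 33.7 CPM. The lowest mice of the knockouts differed: *Elovl6* was lowest in *Tlr7* KO 1 (0.498 CPM, with markers at 31.2 CPM) and *Ifnar1* KO 1 (0.375 CPM, with 14.4 CPM), and the markers in *Tlr7* KO 3 (13.5 CPM) and *Ifnar1* KO 3 (4.44 CPM). Of the 10 lymphocyte markers, 9 were lower in *Tlr7* KO and 9 in *Ifnar1* KO mice, beside 17.1% and 12.1% of all genes. *Elovl5*, an elongase of polyunsaturated fatty acids named after its values were seen, fell by 1.46 on the log2 scale (adjusted p = 0.00486) and by 1.57 (adjusted p = 0.0272) in *Tlr7* and *Ifnar1* KO mice. The part of lymphocytes in the level of *Elovl6* was not tested.

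The 2 transcription factors differed in level and in their values in the knockouts. *Srebf1* (ENSMUSG00000020538, chr11:60199089-60222581) had 47.9, 33.2 and 41.0 CPM in WT, 72.4, 73.6, 67.7, 68.8 and 71.3 CPM in *Tlr7* KO and 64.6, 71.5 and 89.8 CPM in *Ifnar1* KO mice. All knockout mice were above all WT mice. This gave a log2 fold change of 0.80 (SE 0.11) in *Tlr7* KO and 0.87 (SE 0.19, adjusted p = 0.0274, edgeR) in *Ifnar1* KO mice. With library size alone these were 0.25 and 0.52, and neither was called. *Srebf1* shares 109 exon bases with *Rai1* on the other strand in GENCODE M21. *Mlxipl* (ENSMUSG00000005373, chr5:135089890-135138382) was rare, with 8 to 29 counts per library. It was at 0.337 to 0.793 CPM in WT, 0.722 to 0.947 CPM in *Tlr7* KO and 0.613 to 1.05 CPM in *Ifnar1* KO mice, and the groups overlapped. Its log2 fold change was 0.52 (SE 0.31) and 0.44 (95% interval -0.58 to 1.46, adjusted p = 0.497).

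The order of the 10 genes by CPM per kb was led by *Scd1*, *Scd2*, *Acly*, *Srebf1*, *Me1* and *Fasn* in WT, and *Thrsp* came after them at 1.32 ± 1.04 CPM per kb. In *Tlr7* KO mice *Thrsp* stood at 18.6 ± 3.43 CPM per kb, in the third place after *Scd1* (38.5 ± 3.79) and *Scd2* (37.1 ± 2.42) and next to *Acly* (14.7 ± 0.85), whose highest mice overlapped its lowest. In *Ifnar1* KO mice *Thrsp* was at 12.5 ± 1.10 CPM per kb, in the fifth place after *Srebf1* at 13.4 ± 2.31, from which it did not differ beyond the spread. *Acaca*, *Elovl6* and *Mlxipl* filled the last 3 places in each group, at 0.0963 to 0.426 CPM per kb. In WT mice *Thrsp* overlapped *Fasn*. *Scd1* and *Scd2* overlapped in each group, as did *Me1* and *Fasn* in *Tlr7* KO mice. The lengths join the exons of all annotated transcripts of a gene, for *Thrsp* 2189 bases from 2 transcripts. The places therefore depend on the length used.

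Among individual mice, WT 2 was the lowest WT mouse for 7 of the 10 genes and WT 1 the highest for 7. *Ifnar1* KO 1 was lowest in its group for 7. In the *Tlr7* KO group, *Tlr7* KO 2 was highest for 5 genes and *Tlr7* KO 5 lowest for 4.

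Compared directly, the knockouts differed in 0 of the 10 genes by edgeR, where 1.51% of all genes were DE. At an unadjusted p under 0.05 there were 3, *Thrsp*, *Acly* and *Scd1*, beside 15.9% of all genes, and DESeq2 called 2, *Thrsp* and *Acly*, beside 4.14% of all genes. Since *Thrsp* was selected on its *Tlr7* KO values, its calls in any fit of this comparison are no evidence. The log2 difference of *Tlr7* KO minus *Ifnar1* KO was 0.59 (SE 0.14) for *Thrsp*, given as a description, and 0.53 (95% interval -0.06 to 1.12, adjusted p = 0.364, edgeR) for *Fasn*. It was -0.26 for *Acly* (95% interval -0.43 to -0.09, adjusted p = 0.123) and 0.37 for *Scd1* (95% interval 0.10 to 0.65, adjusted p = 0.180), with p values adjusted over all genes. The other 6 genes had differences of -0.17 to 0.30 with adjusted p values of 0.441 to 0.928. Without *Tlr7* KO 5 edgeR called 1 of the 10, *Thrsp*, at a difference of 0.66, and the share of all genes in that fit is not given here. With the replicate number as a block, edgeR called 2 of the 10, *Thrsp* at 0.55 and *Scd1* at 0.47 (adjusted p = 0.0426), beside 3.88% of all genes. Between the knockouts 5 of 6 mice correlated best with the mouse of their own number. Whether mice of the same number had anything in common was not tested. The call of *Thrsp* is again no evidence.

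Genes with a profile like that of *Thrsp* were sought over the 11 mice, among 5051 genes whose mean over all mice reached 10 CPM, as a description that uses the values *Thrsp* was selected on. *Dbp*, *Scgb1b21* and *Nr1d1* were under 10 CPM in WT (means of 8.73, 1.68 and 5.47 CPM) and entered through their levels in the knockouts. Likeness was measured as the root mean square difference of log2 CPM after each gene was centred on its own mean. The closest was *Dbp*, a clock-controlled transcription factor, at 0.709, followed by *Scgb1b21* at 0.787, *Scgb2b17* at 1.03, *Scgb2b15* at 1.04, *Gm14743* at 1.06 and *Nr1d1*, a nuclear receptor of the clock, at 1.08. The secretoglobins *Scgb2b15* and *Scgb2b17* belong to a family of near-identical copies, so their counts are uncertain as to member. Of the lipogenic genes, *Fasn* ranked 37 with a difference of 1.45, *Srebf1* 89, *Scd2* 101, *Me1* 319, *Acly* 579 and *Scd1* 846. *Acaca*, *Elovl6* and *Mlxipl* were under 10 CPM and were not ranked.

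**Figure D4:**
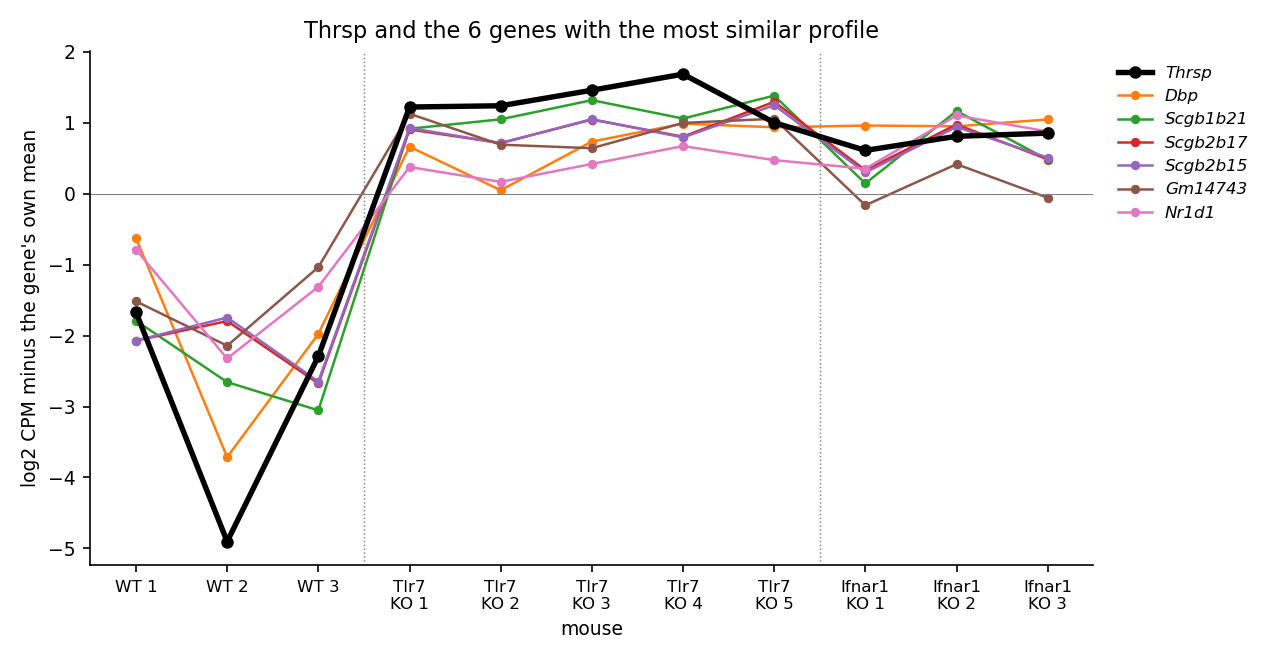
Log2 CPM minus each gene's own mean (vertical axis) in the 11 mice (horizontal axis, groups separated by dotted lines) for *Thrsp* and the 6 genes most like it. All 7 genes are below their mean in each WT mouse, and *Thrsp*, *Dbp*, *Gm14743* and *Nr1d1* are lowest in WT 2.

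*Dbp* was at 17.4, 1.98 and 6.78 CPM in WT 1 to WT 3, 27.8 to 53.4 CPM in *Tlr7* KO and 52.0 to 55.6 CPM in *Ifnar1* KO mice. The order of the 3 WT mice was the same for *Thrsp* and *Dbp*. *Arntl*, a core clock factor that cycles in antiphase to *Dbp*, was at 1.92, 11.4 and 2.38 CPM in WT and at 0.459 to 0.885 CPM in all knockout mice. Of 13 clock genes, core factors and outputs together, 5 rose and 3 fell in *Tlr7* KO, and 3 rose and 1 fell in *Ifnar1* KO mice (adjusted p under 0.05, edgeR). Among all genes 15.3% rose and 17.1% fell in the former, and 6.92% and 12.1% in the latter. *Dbp* and *Nr1d1*, which rose in both, had been named for their likeness to *Thrsp*, so nothing is read from these counts. The summed level of the 13 clock genes was 161 to 187 CPM in WT, 265 to 311 CPM in *Tlr7* KO and 298 to 309 CPM in *Ifnar1* KO mice. The time of collection was not in the sources used here, and the part of the clock in the level of *Thrsp* was not tested.

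Markers of fat and of lipid-secreting glands were listed, since such tissue lies close to the lacrimal gland. The 14 adipocyte markers summed to 35.8 to 55.5 CPM in WT, 16.4 to 66.7 CPM in *Tlr7* KO and 10.9 to 32.4 CPM in *Ifnar1* KO mice. None of the 11 that could be tested was called in any comparison with edgeR, where 32.5%, 19.0% and 1.51% of all genes were. At an unadjusted p under 0.05 there were 0, 3 and 1 in *Tlr7* KO, in *Ifnar1* KO and between the knockouts, beside 44.7%, 37.4% and 15.9% of all genes. All 11 estimates were lower in *Ifnar1* KO than in WT mice, with a median of -0.78 on the log2 scale. Of the defining markers, *Adipoq* was at 0.461 to 3.30 CPM and *Lep* at 0 to 0.391 CPM, and the more abundant of the list included *Car3* at 1.51 to 26.3 and *Fabp4* at 1.17 to 13.9 CPM. In *Tlr7* KO 1 to *Tlr7* KO 5 the sum was 23.9, 66.7, 16.4, 57.1 and 19.8 CPM, beside 37.6, 38.1, 44.3, 51.9 and 32.3 CPM of *Thrsp*. Of the 8 Harderian and sebaceous gland markers, 4 could be tested, and 2 rose in *Tlr7* KO and 1 in *Ifnar1* KO mice, beside 15.3% and 6.92% of all genes. The summed level of this list was 5.80 to 9.07, 14.1 to 20.2 and 13.9 to 16.6 CPM, most of it from *Mc5r*, a melanocortin receptor, which rose by 1.29 (adjusted p = 0.00164) and 1.27 (adjusted p = 0.0223) on the log2 scale. The keratin *Krt79* rose by 1.36 in *Tlr7* KO mice (adjusted p = 0.0254) and had a log2 fold change of 0.82 in *Ifnar1* KO mice (adjusted p = 0.264). *Pm20d1* had 1.19 (adjusted p = 0.0549) and 0.77 (adjusted p = 0.325), with WT apart from both knockouts. *Awat2*, an enzyme of wax ester synthesis, had 0.10 in each comparison, and *Fa2h* was at 0 in 4 mice and at most 0.0684 CPM in the others. *Far2*, which was too low to be tested, had means of 0.307 CPM in WT, 0.217 CPM in *Tlr7* KO and 0.108 CPM in *Ifnar1* KO mice. The part of these tissues in the levels of the 10 genes was not tested.

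Beyond the 10 genes, 75 other genes of fatty acid metabolism were listed in 9 groups, and 68 could be tested. In *Tlr7* KO compared to WT, 29 were DE, with 20 higher and 9 lower, beside 32.5% of all genes (3 higher and 19 lower with library size alone as the scaling, beside 0.839% and 30.8% of all genes). In *Ifnar1* KO compared to WT, 16 were DE, with 6 higher and 10 lower, beside 19.0% of all genes (1 higher and 6 lower with library size alone, beside 0.352% and 6.81% of all genes). The median log2 fold change was 0.10 and 0.21, beside -0.037 and -0.017 for all genes. The count in *Ifnar1* KO mice was 26 without WT 2, 7 without *Ifnar1* KO 2, 1 without WT 1 or WT 3, and 0 without *Ifnar1* KO 1 or 3. Calls over all genes also changed with the mouse left out, so nothing about the list is read from these counts.

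**Figure D5:**
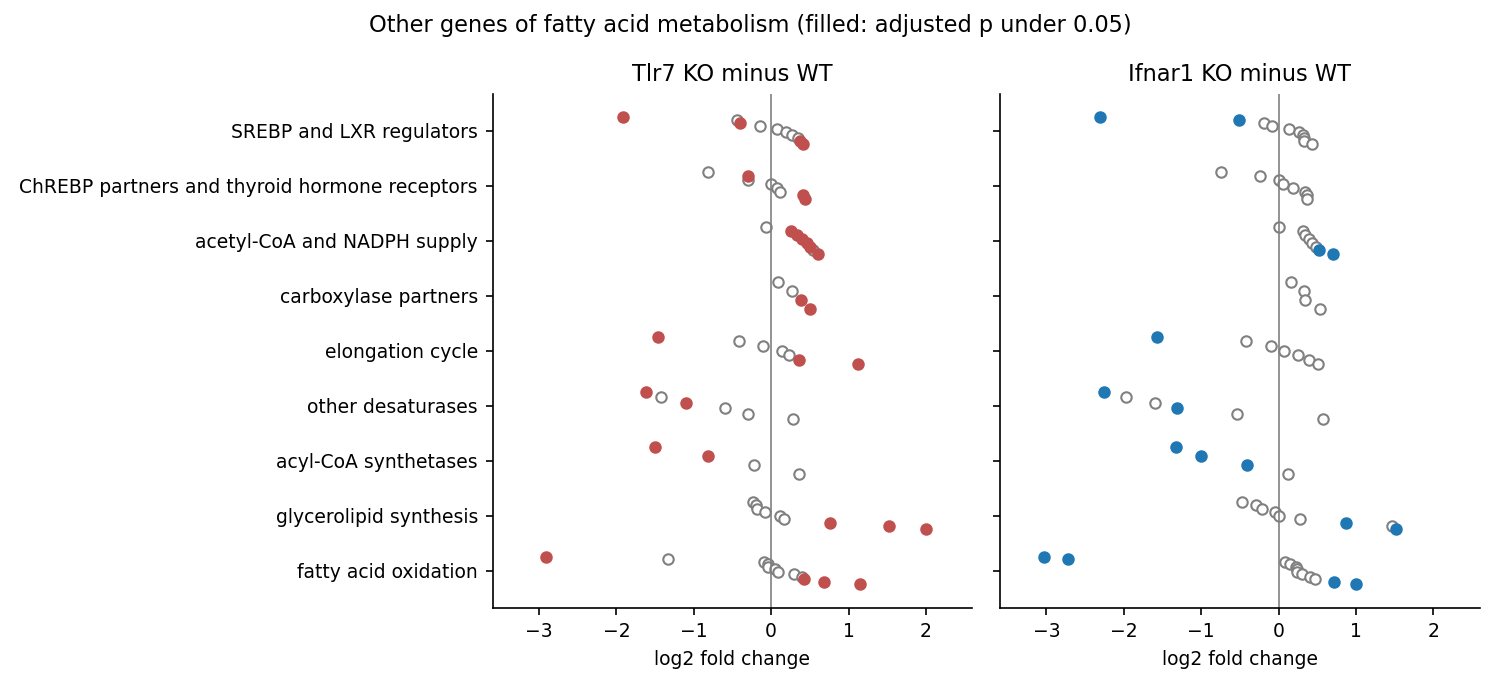
Log2 fold change from WT (horizontal axes) of 68 other genes of fatty acid metabolism, 1 point per gene, by group (vertical axis), in *Tlr7* KO (left) and *Ifnar1* KO glands (right). Filled points have an adjusted p under 0.05; of the supply genes 7 and 8 of 8 lie above 0, with 6 and 2 filled to the right (15.3% and 6.92% of all genes), and of the other desaturases 5 of 6 lie below 0 in each panel, with *Scd3* above 0 and 2 filled to the left (17.1% and 12.1% of all genes).

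Of the genes that supply acetyl-CoA and NADPH, 6 of 8 rose and none fell in *Tlr7* KO mice with TMM scaling, beside 15.3% of all genes higher, whereas with library size alone 3 of the 68 pathway genes were called higher in all. In *Ifnar1* KO mice 2 of the 8 rose, beside 6.92% of all genes, and all 8 estimates were above 0. The 2 were *Pgd*, of the pentose phosphate pathway, and *Idh1*, the cytosolic isocitrate dehydrogenase, both of which make NADPH and were named after their values were seen. *Pgd* rose by 0.51 (adjusted p = 0.00148) and 0.70 (adjusted p = 0.0226) on the log2 scale in *Tlr7* and *Ifnar1* KO mice, and *Idh1* by 0.60 (adjusted p = 0.00238) and 0.53 (adjusted p = 0.0369). Of the carboxylase partners, 2 of 4 rose in *Tlr7* KO (15.3% of all genes) and edgeR called none in *Ifnar1* KO mice, where 19.0% of all genes were called. In the latter all 4 estimates were above 0, with a median of 0.34 on the log2 scale, and 1 of them, *Acacb*, had an unadjusted p under 0.05 (37.4% of all genes). Among the partners *Mid1ip1*, the paralog of *Thrsp* that binds acetyl-CoA carboxylase, was at 6.33 to 9.65 CPM in WT, 6.78 to 8.80 CPM in *Tlr7* KO and 7.85 to 12.9 CPM in *Ifnar1* KO mice. Its log2 fold change was 0.09 (SE 0.15, adjusted p = 0.668) and 0.33 (SE 0.23, adjusted p = 0.330), and its groups overlapped.

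Genes of glycerolipid synthesis, which esterify fatty acids into triglyceride and phospholipid, were higher for 3 of 9 in *Tlr7* KO mice and for 2 in *Ifnar1* KO mice, beside 15.3% and 6.92% of all genes, at an adjusted p under 0.05, with none called lower. *Dgat2*, which catalyses the last step to triglyceride, had 32.3, 27.9 and 20.8 CPM in WT, 68.4 to 85.2 CPM in *Tlr7* KO and 66.6, 77.7 and 91.2 CPM in *Ifnar1* KO mice. It rose by 1.53 (SE 0.14, adjusted p = 0.000352) and 1.52 (SE 0.20, adjusted p = 0.0195), and no knockout mouse overlapped WT. The phosphatidate phosphatase *Lpin3* rose by 2.001 in *Tlr7* KO (SE 0.21, adjusted p = 0.000668) and had a log2 fold change of 1.47 in *Ifnar1* KO mice (adjusted p = 0.0520), where *Ifnar1* KO 1 at 5.96 CPM was near the WT range of 2.36 to 5.23 CPM. The acyltransferase *Gpam*, which starts glycerolipid synthesis, was at 18.2 to 18.4 CPM in WT and 26.5 to 39.5 CPM in the knockouts, and rose by 0.77 (adjusted p = 0.00082) and 0.88 (adjusted p = 0.0195).

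Of the elongation cycle, 2 of 7 rose and 1 fell in *Tlr7* KO, and 1 fell in *Ifnar1* KO mice, which is near the 32.5% and 19.0% of all genes called. The dehydratase *Hacd2* was at 22.5 to 25.8 CPM in WT, 47.0 to 54.9 CPM in *Tlr7* KO and 29.04, 42.3 and 30.7 CPM in *Ifnar1* KO mice. It rose by 1.12 in *Tlr7* KO (SE 0.085, adjusted p = 0.000173) and had a log2 fold change of 0.51 in *Ifnar1* KO mice (adjusted p = 0.0634). Between the knockouts *Hacd2* was the 1 of the 68 genes called, at 0.60 (adjusted p = 0.0329, edgeR), near the 1.51% of all genes. That call was lost when any 1 mouse other than *Ifnar1* KO 2 was left out. Of the other desaturases, 2 of 6 fell in each knockout, beside 17.1% and 12.1% of all genes, and none rose. *Fads2*, which desaturates polyunsaturated fatty acids, fell by 1.62 in *Tlr7* KO (SE 0.33, adjusted p = 0.00624) and by 2.25 in *Ifnar1* KO mice (SE 0.48, adjusted p = 0.0272). In the second count table its log2 fold change in *Tlr7* KO was -0.30 (adjusted p = 0.823).

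Of the acyl-CoA synthetases, 2 of 4 fell in *Tlr7* KO and 3 in *Ifnar1* KO mice, beside 17.1% and 12.1% of all genes, with none called higher. *Acsl4*, which prefers arachidonate, fell by 1.499 (SE 0.22, adjusted p = 0.00179) and 1.32 (SE 0.31, adjusted p = 0.0300). Among SREBP and LXR regulators, 2 of 10 rose and 2 fell in *Tlr7* KO, and 2 fell in *Ifnar1* KO mice, near the shares of all genes called (32.5% and 19.0%). *Nr1h3* encodes LXRα, an activator of *Srebf1* transcription that macrophages express. It fell by 1.91 in *Tlr7* KO (SE 0.37, adjusted p = 0.00571) and by 2.31 in *Ifnar1* KO mice (SE 0.48, adjusted p = 0.0266), so it was lower in the glands in which *Srebf1* was higher. *Nr1h3*, *Fads2* and *Acsl4* were each lowest in WT 2 among WT mice and highest in *Tlr7* KO 2 among *Tlr7* KO mice, as the lymphocyte markers were, whereas in the *Ifnar1* KO group *Nr1h3* alone of them was highest in the mouse with the most lymphocyte markers. The part of these cells was not tested. Of ChREBP partners and thyroid hormone receptors, 2 of 8 rose and 1 fell in *Tlr7* KO mice, near the 32.5% of all genes, and none was called in *Ifnar1* KO mice (1 at an unadjusted p under 0.05, edgeR, beside 37.4% of all genes).

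Fatty acid oxidation genes had 3 of 12 higher and 1 lower in *Tlr7* KO and 2 higher and 2 lower in *Ifnar1* KO mice, beside 32.5% and 19.0% of all genes called, and the former is close to that share. *Ppara*, the nuclear receptor that switches on oxidation, rose by 1.15 (SE 0.19, adjusted p = 0.00286) and 0.998 (SE 0.28, adjusted p = 0.0446). *Pdk4*, a kinase that holds back pyruvate dehydrogenase in fasting, had 4.21, 3.88 and 1.94 CPM in WT 1 to WT 3 and 0.190 to 0.919 CPM in the knockouts. It fell by 2.90 (SE 0.50, adjusted p = 0.00376, edgeR) and 2.71 (SE 0.52, adjusted p = 0.0239). WT 1 and WT 2 were also the WT mice with high skeletal muscle markers, whereas *Tlr7* KO 4, high in these markers too, had at most 0.845 CPM of *Pdk4*. The part of muscle in its level was not tested. *Cpt1b*, the carnitine transferase of muscle, fell by 3.02 in *Ifnar1* KO mice (SE 0.87, adjusted p = 0.0488). It was at 1.33, 0.633 and 0.246 CPM in WT 1 to WT 3 and at 0.700 CPM in *Tlr7* KO 4, and these included the 3 mice with high skeletal muscle markers.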

How the data were processed

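Exorbital lacrimal gland RNA was sequenced on a HiSeq instrument, with 1 library per mouse and WT n = 3, *Tlr7* KO n = 5 and *Ifnar1* KO n = 3. The authors had left out a further *Ifnar1* KO mouse that resembled WT in expression and inflammation. The authors demultiplexed with bcl2fastq, aligned to mm10 with HISAT2 2.1.0 and quantified transcripts with salmon, and deposited estimated counts per gene. This table, although named as normalised, holds values whose totals differ between libraries and was analysed as counts. The authors also deposited a second table of whole read counts, which served as an alternative. Of its columns, 1 matched no sample and was not used. Genes with a summed WT count of at least 30 were tested with edgeR 4.0.16 in R 4.3.3 (TMM factors, robust quasi-likelihood test, two-sided, a separate fit for each pair of groups), with Benjamini-Hochberg adjustment over all genes tested and a threshold of 0.05. Replicates were separate mice. Alternatives were DESeq2 1.42.0, other scalings, gene filters, a fit of all 11 mice, a replicate block, the second table, a threshold of 0.01 and leaving out each mouse. The 10 genes and all gene lists were chosen with earlier results of these data known. Named pathway genes were, per comparison and direction, up to 4 called genes with the largest change, with *Mid1ip1*, *Acacb*, *Scd3* and *Scd4* as close relatives. *Pgd*, *Idh1* and *Elovl5* were added after their values were seen. A gene that met this rule is not reported here. The 6 genes most like *Thrsp* were named among those with a mean of at least 10 CPM. Gene models came from GENCODE M21 (GRCm38) and promoter windows from RefSeq (GRCm38.p6).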

Additional observations from a re-analysis of the deposited data

Results flagged for a closer look

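Among 31 sets of values in the *Tlr7* KO group, 4 held a mouse whose gap to the nearest of the others, divided by the range of the group, exceeded Dixon's critical value of 0.71 for 5 samples, and chance gives about 1 in 20. *Fads2* was at 0.870 CPM in *Tlr7* KO 2, where the next mouse had 0.494 CPM. The summed lymphocyte markers were at 75.0 CPM in the same mouse, with the next at 31.2 CPM, and the summed epithelial markers were lowest there at 5799 CPM, with the next at 6139 CPM. Summed skeletal muscle markers were at 259.6 CPM in *Tlr7* KO 4 and at most 0.475 CPM in the other 4. *Hacd2*, a dehydratase of fatty acid elongation, differed between the knockouts by a log2 value of 0.60 (SE 0.12, adjusted p = 0.0329, edgeR), with each *Tlr7* KO mouse above each *Ifnar1* KO mouse. It was called in 8 of 16 alternatives, and was the 1 call among 68 pathway genes, near the 1.51% of all genes.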

How the results depend on the processing

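Over the alternatives, 390 values of the 10 genes kept their direction and side of the threshold, 45 lost a call, 9 gained one and 16 changed sign. In *Tlr7* KO compared to WT, the count of 6 called genes became 2 with library size only, and the 29 pathway genes became 18 at a threshold of 0.01 (23 to 41 without 1 mouse). In *Ifnar1* KO compared to WT, the 6 became 1 with library size only, 0 at 0.01 and 0 to 6 without 1 mouse, and the 16 pathway genes became 7, 0 and 0 to 26, with 33 in a fit of all 11 mice. For the threshold of 0.01, fits without 1 mouse and the fit of all 11 mice, no share of all genes is given here. Nothing about the lists is read from those counts. DESeq2 called 7 and 6 of the 10, beside 33.0% and 24.1% of all genes. Between the knockouts, DESeq2 called 2 of the 10, beside 4.14% of all genes, including *Thrsp*, whose call is no evidence. With edgeR the count was 0 on all mice and 0 to 1 without 1 mouse. The 1 pathway gene called by edgeR, beside 1.51% of all genes, became 0 with library size only or a threshold of 0.01. Without 1 mouse it became 0 to 3. Replicate numbers did not pair WT mice with either knockout. Same-numbered deviations correlated at -0.400 to 0.0305 between WT and *Tlr7* KO and -0.440 to -0.158 between WT and *Ifnar1* KO. In each, 0 of 6 mice correlated best with their own number. Between the knockouts these deviations correlated at 0.0641 to 0.340, and 5 of 6 mice correlated best with their own number. Whether mice of the same number had anything in common was not tested. With a replicate block, edgeR called 0 of the 10 and 0 pathway genes in *Tlr7* KO (17 of all genes, 3582 at an unadjusted p under 0.05), 0 and 0 in *Ifnar1* KO (0 of all genes, 3875 at an unadjusted p under 0.05) and 2 of the 10 between the knockouts (3.88% of all genes). Changes of sign concerned genes without a call, except *Acly*. *Acaca* in *Tlr7* KO turned to 0.026 with the block, 0.058 in the second table, and 0.014, 0.018 and 0.024 without WT 1, *Tlr7* KO 3 and *Tlr7* KO 5, with -0.048 as the lowest value without 1 mouse. With library size only, *Acly*, *Scd1* and *Mlxipl* in *Tlr7* KO were -0.037, -0.29 and -0.038, *Acaca* in *Ifnar1* KO -0.15 and *Mlxipl* between the knockouts -0.11. *Scd1* in *Ifnar1* KO was 0.049 without WT 1 and 0.063 without *Ifnar1* KO 1, and at the lowest -0.34 without 1 mouse. Between the knockouts *Scd2* was -0.11 without *Ifnar1* KO 1 (range to 0.43 without 1 mouse), *Srebf1* 0.061 without *Ifnar1* KO 3 (range from -0.18), and *Mlxipl* -0.072 in the second table and -0.094 without *Ifnar1* KO 1 (range to 0.30). The cause was not tested. *Mlxipl* and *Elovl6* rest on 8 to 78 counts per library, and the *Ifnar1* KO group on 3 mice after the authors left out a WT-like one.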
